A study of Mus musculus with 3 samples.

Results

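The STAT transcription factors and the Janus kinases (JAKs) were examined in naive CD4+ T cells cultured with different cytokines. The 9 genes listed for this group were Stat2, Stat3, Stat4, Stat5a, Stat5b, Stat6, Jak1, Jak2 and Jak3. A gene was read through a probe set that the platform annotation assigns to that gene symbol alone, and 8 of the 9 genes had such a probe set, 1 each. Jak3 was not analysed here, because its probe set carries another gene symbol too. Further members of both families were not analysed here. The 8 genes are 6 STAT genes and 2 JAK genes, out of 19935 genes that could be named in the same way. All 8 passed the brightness filter, an intensity of at least 187 on at least 1 array, which 11003 genes passed.

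The cells came from wild-type C57BL/6 mice aged 8 weeks, and there were 3 cultures: medium with vehicle, IL-21, and IL-6 combined with TGFb1. IL-21 is a cytokine of activated helper T cells, and IL-6 plus TGFb1 is a standard mix for driving naive cells toward the Th17 fate. Each culture was measured on 1 array, so no difference below has a replicate error, a test or a p-value, and the spread between cultures is unknown. The labels give no time in culture, no doses, no number of mice and no statement on T cell receptor stimulation.

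Cytokine receptors of this class have no kinase of their own and carry JAKs on their inner tails. When a cytokine joins the receptor chains, the JAKs phosphorylate the tails and the STAT proteins that dock there. Phosphorylated STATs pair up, enter the nucleus and bind DNA. IL-21 signals through its own receptor and the common gamma chain with Jak1 and Jak3, and IL-6 signals through gp130 with Jak1 and Jak2 among others. Both activate STAT3 above all, while TGFb1 signals through SMAD proteins. The arrays measured RNA, and the phosphorylation that activates these proteins was not measured.

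The genes are placed on the genome in a way that the choice of members did not use. Stat5b, Stat5a and Stat3 are consecutive protein-coding genes on chromosome 11 in RefSeq (GRCm38.p6), and Stat2 and Stat6 are both on chromosome 10. Sequences from before the annotated starts are shown for Jak2 and Stat4, whose values differed most between cultures, for Stat3, which both cytokines activate, and for genes that hold a motif named below. They were taken from RefSeq, build GRCm38.p6, run 5′ to 3′ on the gene's strand and lie before the start. All 8 genes had at least 1 promoter window of 300 bases, 250 before the start and 50 after it, and together they had 11 windows.
Jak2 (chr19:29251683-29251802, plus strand): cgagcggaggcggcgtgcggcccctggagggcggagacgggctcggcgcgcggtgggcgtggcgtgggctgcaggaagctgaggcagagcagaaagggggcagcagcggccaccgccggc
Stat3 (chr11:100939541-100939660, minus strand): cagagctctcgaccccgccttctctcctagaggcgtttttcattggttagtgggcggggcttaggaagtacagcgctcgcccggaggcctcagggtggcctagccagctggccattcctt
Stat4, first start (chr1:51987028-51987147, plus strand): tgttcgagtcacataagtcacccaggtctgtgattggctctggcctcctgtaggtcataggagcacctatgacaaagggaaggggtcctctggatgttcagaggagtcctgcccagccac
Stat4, second start (chr1:52008133-52008162, plus strand): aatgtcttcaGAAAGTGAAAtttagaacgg
Stat2 (chr10:128270258-128270377, plus strand): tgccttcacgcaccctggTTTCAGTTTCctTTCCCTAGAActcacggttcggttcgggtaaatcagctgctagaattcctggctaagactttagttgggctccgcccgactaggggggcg
Jak1 (chr4:101265224-101265343, minus strand): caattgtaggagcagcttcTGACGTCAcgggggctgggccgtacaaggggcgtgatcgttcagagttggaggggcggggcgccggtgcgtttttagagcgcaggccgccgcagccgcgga
Socs3 (chr11:117969427-117969546, minus strand): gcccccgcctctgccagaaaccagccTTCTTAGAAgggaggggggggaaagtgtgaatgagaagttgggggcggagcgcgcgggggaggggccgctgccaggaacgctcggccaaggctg
Capitals mark motif matches on either strand. The motifs searched were TTCNNNGAA, the general STAT recognition form, TTCNNNNGAA, the wider spacing that STAT6 favours, GAAANNGAAA, the core of the interferon element read by STAT2 with IRF9, and TGACGTCA, the cyclic AMP response element.

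The form TTCNNNGAA occurred in 0 of the 11 windows of the 8 genes, against 8.3% of all 32851 promoter windows in the table. With so few windows, 0 matches cannot be told apart from that share. Socs3, a feedback inhibitor gene, is shown because it holds the form, as TTCTTAGAA. Of 11 inhibitor genes of the pathway with a window, only Socs3 and Cish hold it. Stat2 holds TTCNNNNGAA, found in 6.95% of all windows, and beside it the interferon core, read on the opposite strand as TTTCAGTTTC. The second start of Stat4 also holds the interferon core, as GAAAGTGAAA, and that core is in 3.44% of all windows. Jak1 holds TGACGTCA, which 1.79% of all windows hold. No match was found in the windows of Jak2, Stat3, Stat5a, Stat5b and Stat6. These are descriptions of letters in short windows. Binding was not measured.

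Jak2 had the largest difference from medium of the 8 genes. It encodes the kinase used by gp130 and by the IL-12, IL-23 and interferon gamma receptors. Its intensity was 2249 with medium, 3738 with IL-21 and 2969 in the IL-6 plus TGFb1 culture. The IL-21 culture was highest and the medium culture lowest. On the log2(intensity + 1) scale, used for all differences below, IL-21 was 0.73 above medium, a fold of 1.66, and 131 of the 11003 compared genes (1.19%) had a higher difference. With IL-6 plus TGFb1 the difference was 0.40 (1.32-fold), and 5.85% of genes had a higher one. Between the treated cultures Jak2 was 0.33 higher with IL-21. For scale, 474 genes had 2 bright probe sets, and the gap between these in the difference of IL-21 and medium had a median of 0.07 and a 95th percentile of 0.41. Such a gap reflects error of the probe sets and no spread between cultures, and the Jak2 difference with IL-21 was above that percentile. For IL-6 plus TGFb1 against medium the percentile was 0.37, also below the Jak2 difference, and between the treated cultures it was 0.35, above it.

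Jak1, the kinase shared by the gamma chain, gp130 and interferon receptors, had intensities of 3409.5 with medium, 3979 with IL-21 and 3958 in the IL-6 plus TGFb1 culture. Both treated cultures were above medium by nearly the same amount, 0.22 in each difference. Between them the difference was 0.01, and it was -0.01 after quantile normalization. The Jak2 difference from medium exceeded that of Jak1 by 0.51 with IL-21 and by 0.19 with IL-6 plus TGFb1. Such a comparison within the same arrays does not depend on how the arrays are scaled to each other by a constant factor.

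**Figure D1:**
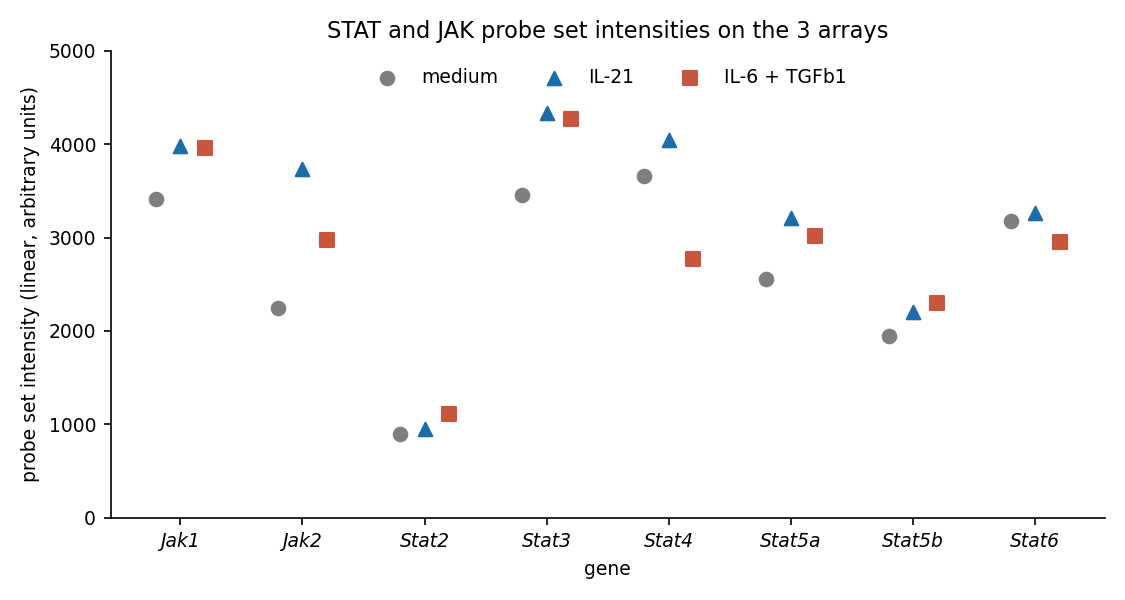
Probe set intensity (linear, arbitrary units) of 2 JAK and 6 STAT genes, with 1 point per array for medium (circles), IL-21 (triangles) and IL-6 + TGFb1 (squares). Jak2 is highest with IL-21 (3738 against 2249 with medium), and Stat4 is lowest with IL-6 plus TGFb1 (2771 against 3661). Heights of different genes are not comparable, since each probe set has its own response.

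Stat3 is the factor that IL-21 and IL-6 share and that Th17 differentiation requires. Its intensity was 3455 with medium, 4332 with IL-21 and 4274 in the IL-6 plus TGFb1 culture. The treated cultures lay close together and above medium. The differences from medium were 0.33 and 0.31 (1.24-fold), and 8.31% and 10.3% of compared genes had higher ones. The treated cultures differed by 0.02 in Stat3. Both differences from medium lay inside the 95th percentile of the gap between probe sets of the same gene (0.41 with IL-21 and 0.37 with IL-6 plus TGFb1). The same held for both differences from medium of Jak1, Stat2, Stat5a, Stat5b and Stat6, and for that of Stat4 with IL-21.

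Stat4, which is activated by IL-12 and directs Th1 differentiation, was the gene that separated the treated cultures most. It had an intensity of 3661 with medium, 4046 with IL-21 and 2771 in the IL-6 plus TGFb1 culture. The IL-6 plus TGFb1 culture was lowest, and the IL-21 culture was highest. With IL-21 the difference from medium was 0.14, and with IL-6 plus TGFb1 it was -0.40, a level 1.32-fold lower than medium. Only 202 compared genes, 1.84%, had a lower difference with IL-6 plus TGFb1. Directly compared, IL-21 was 0.55 above IL-6 plus TGFb1 (1.46-fold), and 109 compared genes (0.991%) had a higher difference. Both of these Stat4 differences were beyond the 95th percentile of the gap between probe sets. No array had IL-6 or TGFb1 alone, so their parts cannot be told apart.

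The balance of Stat3 to Stat4 differed accordingly. Relative to medium, Stat3 exceeded Stat4 by 0.71 log2 units with IL-6 plus TGFb1 and by 0.18 with IL-21. Set against each other, the treated cultures gave a contrast of -0.53. In these bulk samples fewer cells of a type and less RNA per cell cannot be told apart. The marker gene Cd8b1 of CD8 T cells, which also express Stat4, was 810 with medium, 731 with IL-21 and 616 in the IL-6 plus TGFb1 culture. It was lowest in the same culture as Stat4, with a difference of -0.39 from medium. Cd8a, the other CD8 marker, did not follow that order and was lowest with IL-21. It was at 163 with medium, 145 with IL-21 and 155 in the IL-6 plus TGFb1 culture, below the brightness filter on all 3 arrays. The part of such cells in the Stat4 result was not tested.

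Stat5a and Stat5b encode close relatives activated by IL-2 and IL-7, and STAT5 opposes STAT3 at the Il17 locus. Stat5a had intensities of 2552 with medium, 3205 with IL-21 and 3019 in the IL-6 plus TGFb1 culture. The order was the same as for Stat3, with differences from medium of 0.33 (1.26-fold) and 0.24. Stat5b was at 1945, 2203 and 2299.6 in the same order of cultures, which is 0.18 and 0.24 above medium. The pair was alike with IL-6 plus TGFb1, where their differences from medium were 0.00 log2 units apart, and 0.15 apart with IL-21. Stat3 and Stat5a were also close in both cultures, with a contrast of 0.00 with IL-21 and 0.06 with IL-6 plus TGFb1, so the level of Stat3 RNA relative to Stat5a RNA was nearly the same on all 3 arrays. Near-identical stretches of Stat5a and Stat5b could share probes, and the probe sequences were not used here.

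Stat6, the mediator of IL-4 and of Th2 differentiation, had the smallest difference with IL-21. Its intensities were 3173 with medium, 3265 with IL-21 and 2956 in the IL-6 plus TGFb1 culture. That is 0.04 above medium and 0.10 below it (-0.10), and 0.14 higher with IL-21 than with IL-6 plus TGFb1. The order of the cultures was that of Stat4, at a smaller size.

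Stat2, the partner of IRF9 in the response to type I interferon, was at 893 with medium, 950.2 with IL-21 and 1107 in the IL-6 plus TGFb1 culture. It was highest with IL-6 plus TGFb1, unlike the other genes except Stat5b. The differences from medium were 0.09 with IL-21 and 0.31 (1.24-fold) with IL-6 plus TGFb1, and IL-21 was below IL-6 plus TGFb1 by 0.22 (-0.22). Stat2 was the gene most dependent on scaling, as quantile normalization gave -0.01 with IL-21 and 0.23 for IL-6 plus TGFb1.

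**Figure D2:**
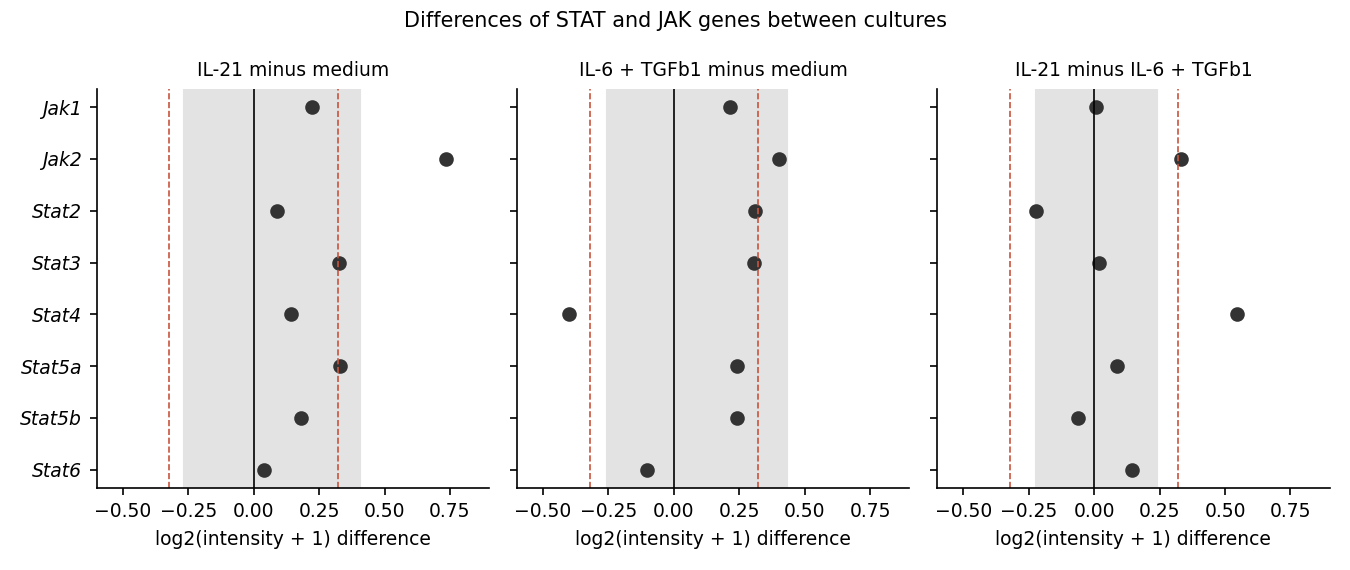
Difference in log2(intensity + 1) of each JAK and STAT gene (1 point per gene, 1 array per culture) in the 3 comparisons. The grey band holds the central 90% of the 11003 compared genes, and dashed lines mark the count threshold of 0.32. Jak2 with IL-21 (0.73) and Stat4 with IL-6 plus TGFb1 (-0.40) lie outside the band, as do Jak2 (0.33) and Stat4 (0.55) between the treated cultures.

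None of the 8 genes reached 2-fold in any of the 3 comparisons. Few genes of the whole table did, so this count says nothing about the group: 0.482% of compared genes reached it upward and 0.109% downward with IL-21, 0.673% and 0.364% with IL-6 plus TGFb1, and 0.273% and 0.191% between the treated cultures. A smaller threshold, a difference of 0.32 log2 units in either direction, was used to count them. With IL-21 3 of 8 genes were past it on the higher side (Jak2, Stat5a and Stat3) and 0 on the lower side, where 8.6% and 3.18% of all compared genes were. Stat3 and Stat5a were only just past it, and after quantile normalization Jak2 alone was. With IL-6 plus TGFb1 1 gene was past 0.32 on the higher side (Jak2; all genes 9.32%) and 1 on the lower side (Stat4; all genes 3%), and centring each array on its median raised the higher count to 3. Between the treated cultures 2 genes were past it, Stat4 and Jak2, both higher with IL-21 (all genes 3.05%), and 0 were lower (all genes 2.01%). After quantile normalization the Jak2 difference there was 0.30, and 1 gene, Stat4, was past the threshold.

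The signs of the differences were counted beside those of all genes. All 8 genes were above medium with IL-21, Stat2 only without quantile normalization, beside 59.8% of compared genes. Among the 5617 genes at or above the 75th percentile of intensity, which include the 8, it was 65.5%. With IL-6 plus TGFb1 6 of 8 were above medium, beside 56.3%. Between the treated cultures 6 of 8 were higher with IL-21, Jak1 only without quantile normalization, beside 44.7%. These shares over all genes depended on the scaling, and in the same order they were 45.4%, 48.7% and 42.5% after quantile normalization and 82.2%, 68.8% and 70.9% after centring each array on its median. The median difference of the 8 genes was 0.20 with IL-21, 0.24 with IL-6 plus TGFb1 and 0.05 between the treated cultures, and over all compared genes it was 0.04, 0.02 and 0.00. Both differences from medium use the same medium array. Of all genes past 0.32, 73.0% were higher with IL-21, 75.6% with IL-6 plus TGFb1 and 60.3% between the treated cultures. Quantile normalization gave 62.6%, 63.8% and 55.6%, and centring gave 87.4%, 80.3% and 72.2%.

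**Figure D3:**
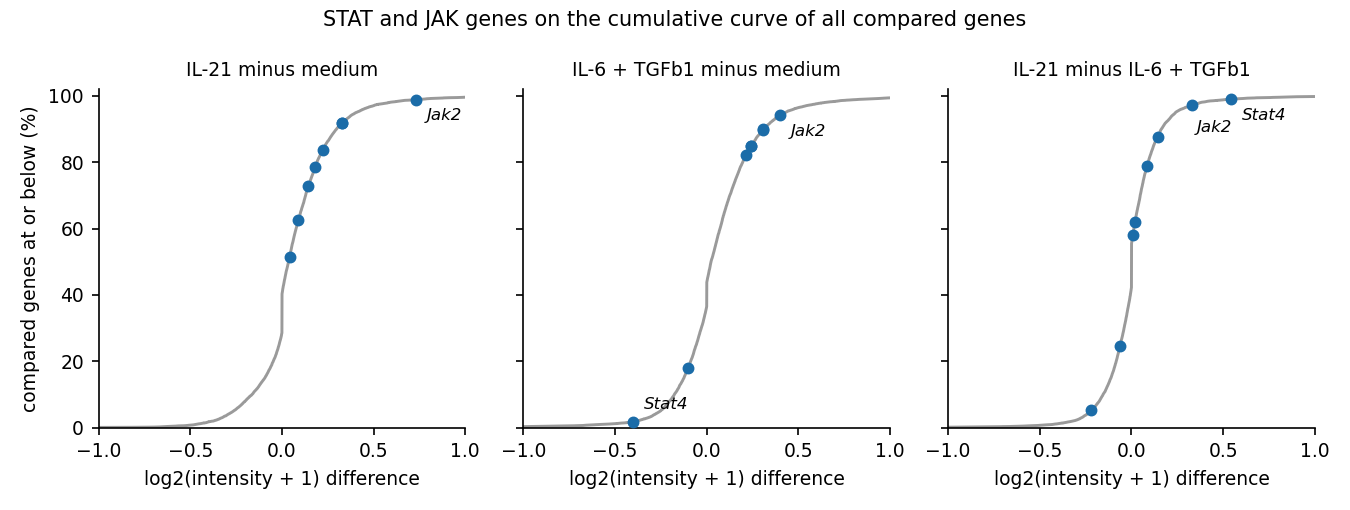
Share of the 11003 compared genes (%, vertical axis) at or below each difference in log2(intensity + 1), with the 8 JAK and STAT genes as points on the curve. Jak2 with IL-21 has 1.19% of genes above it, and Stat4 with IL-6 plus TGFb1 has 1.84% below it. The vertical step at 0 is made by genes with equal values on both arrays.

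The genes whose differences from medium were most like those of Jak2 were Spsb1, Gstt1 and Farp1, at Euclidean distances of 0.03, 0.05 and 0.07 in the plane of both differences. Spsb1 had 0.76 with IL-21 and 0.39 with IL-6 plus TGFb1. In all, 16 genes lay within 0.1 of Jak2. With 3 arrays this likeness is a description of 2 numbers per gene.

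Genes for chains of receptors that signal through JAKs were described from lists, whether or not the chain itself binds a JAK. Of 6 compared receptor genes of the gamma chain group, 3 were higher by over 0.32 with IL-21 (all genes 8.6%) and 0 lower (3.18%), with a median of 0.20. They were Il7r, the IL-7 receptor chain (0.58), Il21r, the receptor for IL-21 itself (0.46), and Il4ra of the IL-4 receptor (0.34). That of Il4ra lay inside the 95th percentile of the gap between probe sets (0.41). With IL-6 plus TGFb1 Il7r was higher (0.89) and Il15ra lower (-0.43), where 9.32% and 3% of all genes were past the threshold, and the median was -0.02. Il7r had an intensity of 989 with medium, 1481 with IL-21 and 1827 in the IL-6 plus TGFb1 culture. Il15ra (0.43) and Il4ra (0.35) were higher with IL-21 than with the IL-6 plus TGFb1 mix. The common gamma chain gene was not analysed here.

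Among 12 compared receptor genes of the gp130, IL-12 and interferon type, 3 were higher by over 0.32 with IL-21 and 0 lower (median 0.05), beside 8.6% and 3.18% of all genes. In the IL-6 plus TGFb1 culture 3 were higher and 1 lower (median 0.18), beside 9.32% and 3%. Il23r, whose product carries Jak2, was at a dim 77.9 with medium, 418 with IL-21 and 1596 in the IL-6 plus TGFb1 culture. It passed the brightness filter only through the treated arrays, so its differences of 2.41 and 4.34 rest on a medium value below the filter and their size is poorly measured. Il12rb2, the Stat4-activating chain of the IL-12 receptor, was higher in both treated cultures, by 0.44 and 0.34. Its intensities were 3624 with medium, 4924 with IL-21 and 4588 in the IL-6 plus TGFb1 culture, so it did not share the lower value of Stat4 with IL-6 plus TGFb1. Il6ra was 0.38 higher with IL-21. This difference, and that of Il12rb2 with IL-6 plus TGFb1, lay inside the 95th percentile of the gap between probe sets (0.41 and 0.37). Il10ra, a chain of the IL-10 receptor, was lower with IL-6 plus TGFb1 (-0.65) and 0.67 higher with IL-21 than with IL-6 plus TGFb1.

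Of 18 compared inhibitor genes of the pathway, 2 were past 0.32 on the higher side in each treated culture and 0 on the lower side, near the shares over all genes (8.6% and 9.32% higher, 3.18% and 3% lower), with medians of 0.09 and 0.12, and between the treated cultures there were 0 in either direction. The 2 were Socs3, which blocks JAKs at gp130, and Ptpn1, a phosphatase that acts on JAKs. Socs3 went from 529.7 with medium to 1516 with IL-21 and 1517 in the IL-6 plus TGFb1 culture, a difference of 1.52 in each. Its dimmer probe set gave 0.86 and 0.56. Ptpn1 was 0.36 higher in each treated culture, inside the 95th percentile of the gap between probe sets in both (0.41 and 0.37). Cish, a STAT5-induced inhibitor, had differences of 0.04 and 0.10.

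Of 11 partners and coactivators of STATs, 4 were higher by over 0.32 with IL-21 and 0 lower, and 3 higher and 1 lower with IL-6 plus TGFb1. Over all genes the shares were 8.6% and 3.18%, and 9.32% and 3%. The coactivator gene Ncoa1 was at 0.41 and 0.73, and Ep300, a histone acetyltransferase, at 0.37 and 0.54. Jun, an AP-1 factor, was 0.61 above medium with IL-6 plus TGFb1. Nmi, an interacting protein of STATs, was 0.37 higher with IL-21, and 0.38 higher with IL-21 than with IL-6 plus TGFb1. The differences of Ep300 and Nmi between IL-21 and medium lay inside the 95th percentile of the gap between probe sets. Kpna1, which imports STATs into the nucleus, had the same intensity with medium and IL-21, 1628. It was the 1 lower gene with IL-6 plus TGFb1, at 1214 (-0.42), and so was 0.42 higher with IL-21 than in that culture.

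Known targets of each STAT were set beside the STAT's own RNA. A link between a STAT's RNA and its targets was not tested here or below. Of 18 compared STAT3 targets, 11 were higher by over 0.32 and 0 lower in each treated culture, with medians of 0.45 and 0.40, beside 8.6% and 9.32% of all genes higher and 3.18% and 3% lower. Among them were Il21 (5.34 and 6.13), Il23r and Socs3, and Maf, a Th17 transcription factor, was 2.77 above medium with IL-6 plus TGFb1. The medium value of Il21 was dim, at 43.0, and Il21, like Il23r, passed the filter only through the treated arrays, so the size of its differences is poorly measured. Between the treated cultures Maf (-2.65), Il23r (-1.93) and Rora (-1.12) were lower with IL-21, whereas Stat3 itself differed by 0.02. This list overlaps with genes already known to differ in these data and is no independent evidence. The lists also share genes, such as Socs3, Il23r and Il4ra.

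The 14 STAT5 targets had medians near 0, -0.01 with IL-21 and -0.03 with IL-6 plus TGFb1. Stat5a and Stat5b were above medium in both cultures, by amounts inside the 95th percentile of the gap between probe sets. With IL-21 2 were higher by over 0.32 and 2 lower (all genes 8.6% and 3.18%), the latter Lta, which encodes lymphotoxin alpha (-0.74), and Foxp3, the regulatory T cell factor (-0.66). Prf1, the perforin gene, was 0.58 higher. With IL-6 plus TGFb1 1 was higher (Prf1, 0.39; all genes 9.32%) and 2 were lower (all genes 3%), Foxp3 (-0.84) and the kinase gene Pim2 (-0.47). Il2ra, a classical STAT5 target, had differences of 0.01 and -0.03.

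The 9 STAT4 targets went both ways. With IL-21 5 were higher by over 0.32 and 1 lower (all genes 8.6% and 3.18%), and with IL-6 plus TGFb1 6 were higher and 2 lower (all genes 9.32% and 3%). Ifng, the main Th1 cytokine gene, had intensities of 1153 with medium, 514 with IL-21 and 289.9 in the IL-6 plus TGFb1 culture. It was lower in both treated cultures (-1.16 and -1.99), including the IL-21 culture in which Stat4 was highest. On the other side were Il18r1, an IL-18 receptor chain (1.18 and 1.97, from a medium value of 174 below the filter), and Gadd45g, a stress-kinase activator (1.50 and 1.36). Il18rap (0.49 and 0.51) also had a medium value below the filter, at 180. Il18r1 and Il18rap passed the filter only through the treated arrays, where they were high. Both are among the higher genes counted in each culture, so those counts are inflated beside the shares of all genes. Furin, a protease gene, was lower with IL-21 than in the IL-6 plus TGFb1 culture (-1.10). Its differences from medium were -0.16 with IL-21 and 0.95 with IL-6 plus TGFb1.

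Of 9 STAT6 targets, 6 were higher by over 0.32 and 0 lower with IL-21 (all genes 8.6% and 3.18%), with a median of 0.58, while Stat6 itself was 0.04 above medium. Among them were the transcription factor gene Nfil3 (0.94) and the cytokine gene Il4 (0.79). Il24, another cytokine gene, had a difference of 1.06 but passed the filter only through the IL-21 array (243, against 116 with medium), so its size is poorly measured. With IL-6 plus TGFb1 3 were higher and 3 lower (all genes 9.32% and 3%), with a median of -0.02, and Gata3, the Th2 factor, was at -1.74. Between the treated cultures 6 of 9 were higher by over 0.32 with IL-21 and 0 lower (all genes 3.05% and 2.01%), with Gata3 at 2.43 and Il4 at 1.17. Il4 was dim, at 198 with medium, 342 with IL-21 and 152 in the IL-6 plus TGFb1 culture. The last value is below the filter, so the size of its differences is poorly measured.

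Of 13 interferon genes listed as STAT2 and IRF9 targets, 12 had a usable probe set and 7 passed the brightness filter, as 11003 of 19935 genes did overall. Their median was -0.19 with IL-21 and -0.32 with IL-6 plus TGFb1, the culture in which Stat2 was highest. Past 0.32 were Ifit2 on the higher side with IL-21 (0.37; all genes 8.6%), and on the lower side, where 3% of all genes were, with IL-6 plus TGFb1 the exonuclease gene Isg20 (-1.05), Ifit1 (-0.40) and the interferon regulatory factor gene Irf7 (-0.34). Isg20 had intensities of 849.9 with medium, 743 with IL-21 and 409 in the IL-6 plus TGFb1 culture. Ifit1 and Irf7 were dim, both at 241 with medium. In the IL-6 plus TGFb1 culture Ifit1 was at 183, below the filter, and Irf7 at 191. The Irf7 difference also lay inside the 95th percentile of the gap between probe sets (0.37). That of Ifit2 with IL-21 lay inside the percentile of its own comparison (0.41).

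**Figure D4:**
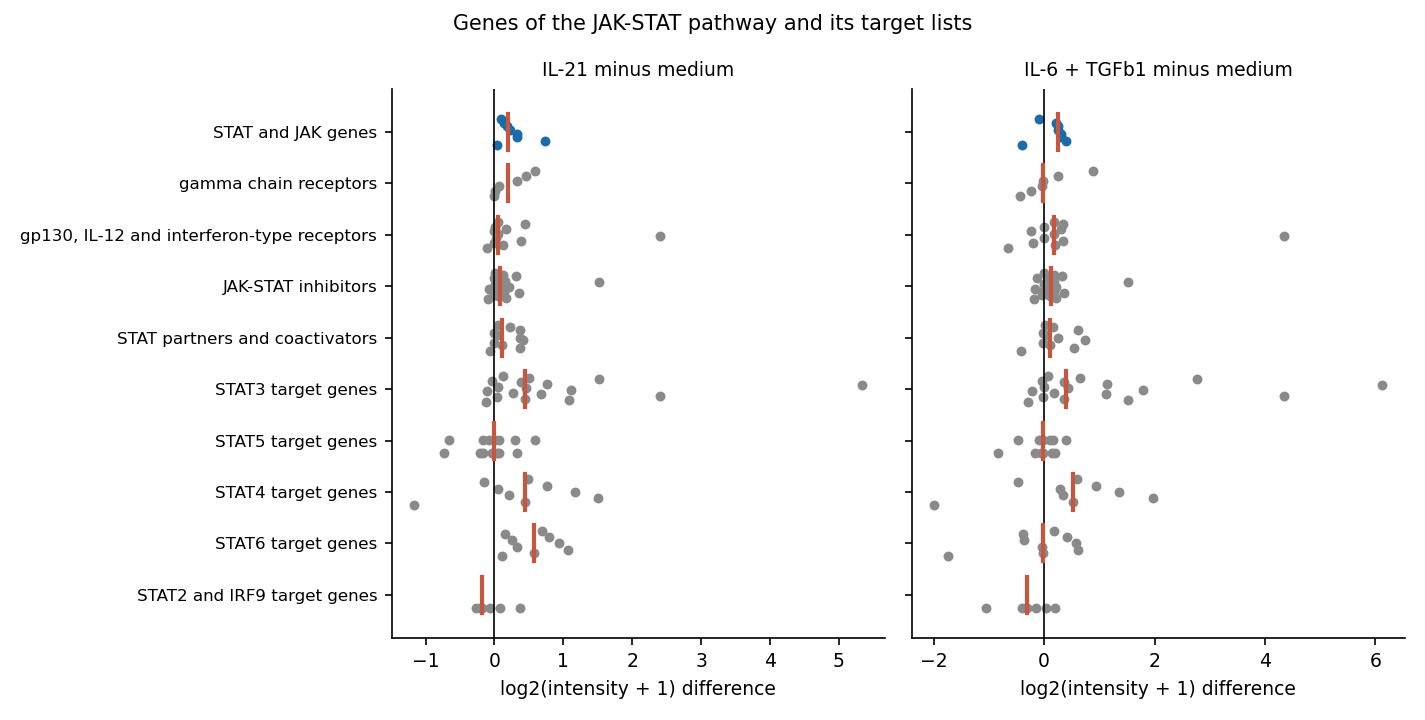
Differences in log2(intensity + 1) from medium of the JAK and STAT genes (blue) and of each pathway and target list (grey, 1 point per compared gene), with IL-21 on the left and IL-6 plus TGFb1 on the right. Red bars are medians, which are 0.45 and 0.40 for the STAT3 targets and -0.01 and -0.03 for the STAT5 targets. The horizontal axes differ in range between the panels.

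The labelled cell type was checked on the same arrays. All 5 CD4 T cell markers with a probe set (Cd3d, Cd3e, Cd3g, Cd4 and Cd28) passed the brightness filter, and their summed intensity ran from 23816 to 25615. They did not all go the same way: Cd28, a costimulatory receptor gene, had differences from medium of 0.41 and 0.51 in the treated cultures, IL-21 first, while Cd4 was at -0.02 and -0.17. Of 16 markers of CD8 T, B, myeloid and NK cells, 2 passed it, Cd8b1 and the B cell gene Cd79b (365 to 380.5). The summed intensity of the CD8 list was 973 with medium, 876 with IL-21 and 772 in the IL-6 plus TGFb1 culture. That of the B cell list was between 731 and 751, of the myeloid list between 624 and 654, and of the NK list between 258 and 278. The median intensity of the arrays was between 182 and 191.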

How the data were processed

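RNA of 3 cultures was measured on 3 arrays, 1 per group, with groups taken from the labels. The deposited values are linear intensities per probe set, and the authors' summarization and normalization are not given in the sources used here. RNA was labelled with biotin using a whole-transcript kit, per the labels' protocols. The build named in the submitters' processing notes is mm8. Of 28815 probe sets, 21780 had 1 gene symbol in the platform annotation, 1605 several and 5430 none listed, and the highest-mean probe set stood for a gene. Differences were taken on log2(intensity + 1), computed here from the deposited intensities, which understates those of dim genes. Genes reaching the overall median intensity (187) on at least 1 array were compared. With 1 array per group there was no test, and the number of arrays limits the precision.

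The members and lists were chosen with earlier results of these data known. Named were the members, up to 3 genes per list and comparison with the largest differences past 0.32, and the 3 genes nearest to the leading member. Other genes were named after their values were seen, namely Cish, Il2ra, Il18rap, Irf9, the markers, and further values of genes named by the rule. The calculation was tested on simulated data. Python 3.11.15 with pandas 2.3.3 and numpy 2.4.6 was used. Alternatives were log2(intensity + 16), quantile normalization, centring on the median, raising low values to the 20th percentile, averaging probe sets, no brightness filter, and a filter at the 75th percentile.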

Additional observations from a re-analysis of the deposited data

How the results depend on the processing

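With 1 array per group the spread between cultures is unknown, no array could be left out, and no difference has a test. No paired analysis was possible because each group has 1 array. Each of the 8 genes kept its side of 0 under the 7 alternatives, except Stat2 with IL-21 and Jak1 between the treated cultures, both near 0 and both slightly negative after quantile normalization. Of 168 differences of single STAT and JAK genes under the alternatives, 166 moved by less than the median gap between probe sets of a gene, and 0 of those past 0.32 reversed. The other 2 were those of Stat2 from medium after quantile normalization. Many of the 168 could not move, since each gene had 1 probe set and was bright. Averaging probe sets, raising low values and either change of filter left these genes exactly as they were. Only the other offset, quantile normalization and centring could change them, and centring shifts all genes alike. The count of 166 is therefore weak evidence of stability. Jak2 ranged from 0.69 to 0.80 with IL-21, and Stat4 from -0.40 to -0.38 with IL-6 plus TGFb1.

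Counts past 0.32 on the higher side were 1 of 8 after quantile normalization both with IL-21 and between the treated cultures, and 3 with IL-6 plus TGFb1 after centring on the median. List medians that moved by at least the median gap between probe sets (0.07 with each treatment against medium, 0.06 between the treated cultures) were these. After quantile normalization the STAT3 targets had 0.37 with IL-21. With the filter at the 75th percentile, which leaves fewer genes, the STAT4 targets had 0.25 and the STAT6 targets and gamma chain receptors 0.34 with IL-21, and the STAT2 targets had -0.51 with IL-6 plus TGFb1 and 0.38 between the treated cultures. Of the STAT2 targets that filter left only Irf9 and Isg20. Isg20 made those medians large (-1.05 and 0.86), while Irf9 was at 0.03 and -0.10. With no filter, which adds dim genes, the STAT2 targets had -0.11, -0.17 and 0.050 in the 3 comparisons, the gamma chain receptors 0.060 with IL-21, and the gp130, IL-12 and interferon-type receptors 0.063 with IL-6 plus TGFb1. Of the 27 list medians, 8 lay within 0.05 of 0 and turned sign under at least 1 alternative, such as the STAT5 targets with IL-21 at 0.05 after centring, so their sign is not settled.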
